A study of Mus musculus with 6 samples.

Results

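A list of 41 interferon response and cytosolic nucleic acid sensing genes was followed from MPC, a mouse gastric adenocarcinoma cell line, to MPC-PTX, the paclitaxel (PTX)-resistant line raised from it. The list holds the receptors for interferon, the STAT and IRF transcription factors, the sensors of foreign or misplaced RNA and DNA, and interferon-stimulated genes, and its members were picked by gene name from the 21959 genes of the count table. All 41 names were found, each on a single row. RNA was sequenced as 3 libraries per line, which the paper calls MTC and MTC-R. Both lines carry the CDH1-/-;Trp53-/- genotype, both grew in RPMI 1640 medium with serum and antibiotics, and both come from organoids made from the stomach of a C57BL/6 J mouse with floxed Trp53 and Cdh1 and a Mist1-CreER driver. MPC was untreated, whereas MPC-PTX had received over 30 cycles of PTX. Each line was grown from a single selected clone, so a difference between the lines cannot be told apart from a difference between clones, and no time after the last PTX dose is given. All libraries share batch 1, and nothing says whether replicates were separate cultures, so p-values measure only the spread between these libraries, which may be technical.

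Type I interferons bind the receptor pair encoded by Ifnar1 and Ifnar2, and interferon gamma binds the pair encoded by Ifngr1 and Ifngr2. The type I signal joins STAT2 and IRF9 with a further STAT protein into a complex that binds the interferon-stimulated response element in front of its target genes, whose products block viral replication, tag proteins with ISG15 or switch the signal off again. Inside the cell, RIG-I (Ddx58) and MDA5 (Ifih1) detect double-stranded RNA and signal through MAVS, while cGAS detects DNA in the cytosol, and TBK1 then activates IRF3 to induce interferon. Drugs that disturb mitosis, PTX among them, are known to leave micronuclei that cGAS can bind, and many tumour lines hold a low interferon signature in culture without added interferon.

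The promoters of 5 members are shown because each of these genes differed between the lines, and all 5 hold the same core letters. Isg15 and Rsad2 differed towards higher and Oas1a, Oas3 and Ifit3 towards lower expression in MPC-PTX. Rsad2 had enough counts to be tested only through MPC-PTX, and Oas3 and Ifit3 only through MPC, so the direction of these was fixed beforehand. The sequences are the 160 bases before the RefSeq start of each gene, 5′ to 3′ on the strand of the gene, in GRCm38.p6. Capitals mark the core of the interferon-stimulated response element, which was searched as TTTC, any 2 bases and TTTC again or, on the other strand, GAAA, any 2 bases and GAAA. Neighbouring matches overlap in Isg15 and Oas1a, so that a longer run is capitalised.
Isg15: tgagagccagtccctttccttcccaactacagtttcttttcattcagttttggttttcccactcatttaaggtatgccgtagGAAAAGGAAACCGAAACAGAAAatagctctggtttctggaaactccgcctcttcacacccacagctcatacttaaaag
Rsad2: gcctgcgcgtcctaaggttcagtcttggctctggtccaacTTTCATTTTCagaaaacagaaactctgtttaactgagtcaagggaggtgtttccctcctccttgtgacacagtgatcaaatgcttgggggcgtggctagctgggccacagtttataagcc
Oas1a: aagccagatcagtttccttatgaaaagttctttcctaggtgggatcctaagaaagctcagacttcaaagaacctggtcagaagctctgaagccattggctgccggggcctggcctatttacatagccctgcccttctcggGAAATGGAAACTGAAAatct
Oas3: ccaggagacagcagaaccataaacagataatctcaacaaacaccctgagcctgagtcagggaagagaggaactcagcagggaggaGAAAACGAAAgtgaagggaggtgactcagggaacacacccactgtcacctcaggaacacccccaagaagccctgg
Ifit3: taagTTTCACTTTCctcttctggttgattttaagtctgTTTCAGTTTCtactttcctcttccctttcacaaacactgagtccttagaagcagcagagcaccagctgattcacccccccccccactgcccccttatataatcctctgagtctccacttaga
These stretches are at chr4:156200819-156200978 (minus strand), chr12:26456453-26456612 (minus strand), chr5:120907526-120907685 (minus strand), chr5:120777660-120777819 (minus strand) and chr19:34583369-34583528 (plus strand).

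Over the whole promoter window of RefSeq, from 250 bases before to 50 bases after a start, 32 of the 41 members had an entry. This core was found on either strand in 13 of these 32 genes, or 40.6%, against 3.99% of all 27025 genes with an entry. Since the list was drawn up from interferon-stimulated genes, this share says nothing on the comparison of the lines. The letters stood in front of members that moved either way. They were found in 4 of the 5 members that were higher in MPC-PTX (Isg15, Rsad2, Bst2 and Ddx58), in 4 of the 8 lower members with an entry (Oas1a, Oas3, Ifit3 and Stat2) and in 5 of the 19 whose difference did not pass the test. Rsad2, Oas3 and Ifit3 were tested only through the line in which they were higher, so their place in this tally was fixed beforehand. The lower members Mx1, Usp18 and Rtp4, which are among those with the largest falls, had no entry and were not searched. In Ddx58, Ifih1, Ifitm3 and Eif2ak2 the match lay after the start. A match is a description of the letters and not evidence of binding.

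The libraries held 16574580 to 23148182 counts. Levels are given as CPM, the counts scaled to a common library size after adjustment by the TMM method, and a change as a log2 fold change of MPC-PTX over MPC with its standard error (SE) from edgeR. Of all 11795 genes with enough counts to be tested, 29.7% had an adjusted p below 0.05, 14.1% towards higher and 15.6% towards lower expression in MPC-PTX. The replicates of MPC were less alike than those of MPC-PTX, with a biological coefficient of variation of 17.9% against 3.01%. MPC replicate 3 stood apart with higher counts for GC-poor genes. In the 2944 tested genes with the least GC the median ratio of its CPM to the mean of MPC replicates 1 and 2 was 1.34, against 0.994 over all tested genes. Cdh1 and Trp53 had reads in every library, from 2217 to 3068 counts and from 63 to 142, and counts per gene do not show which exons they came from. Of 8 markers of gastric epithelium, 6 were tested, with a summed level of 8838 to 10220 CPM over the list in MPC and 5368 to 5531 in MPC-PTX, and all 6 were lower in MPC-PTX. In bulk RNA a smaller share of cells and less RNA per cell cannot be told apart. Tff1 and Tff2 had 0 counts in every library, which allows up to 3 counts per library.

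The interferon genes did not move as a block. Of the 39 members that passed the low-count filter, 5 were higher in MPC-PTX (Rsad2, Isg15, Ifit2, Bst2 and Ddx58) and 11 were lower (Mx1, Usp18, Oas3, Rtp4, Oas1a, Ifit3, Ifngr1, Stat2, Irf1, Oasl2 and Dtx3l), with an edgeR adjusted p below 0.05. The higher genes were 12.8% of the tested members, near the 14.1% of all genes, and the lower genes were 28.2%, against 15.6% of all genes. The members were chosen with earlier results of these data known, so the shares given here describe the list and are no test of it. The remaining 23 members had log2 fold changes from -1.43 to 0.47 and did not pass the test. The median over the tested members was -0.18, and that of all tested genes was 0.04. With an absolute log2 fold change above 1 in addition, 3 members were higher (7.69% of those tested, against 3.54% of all genes) and 6 were lower (15.4%, against 4.2%). By the fold limit with an unadjusted p below 0.05, 3 members were higher (3.77% of all genes were) and 7 lower (4.34% of all genes), Ifi44 being the addition. Rsad2 passed the filter only through its MPC-PTX libraries, and Oas3 and Ifit3 only through their MPC libraries, with 0 libraries of the other line past the limit, so that these had to differ to be tested. Ifi44 had 1 MPC-PTX library past it. Without MPC replicate 1, 17 members were lower, and without MPC-PTX replicate 2 or without MPC-PTX replicate 3, 3 members were higher. The share of all genes is not given for these fits, so the counts do not set the members apart from other genes.

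**Figure D1:**
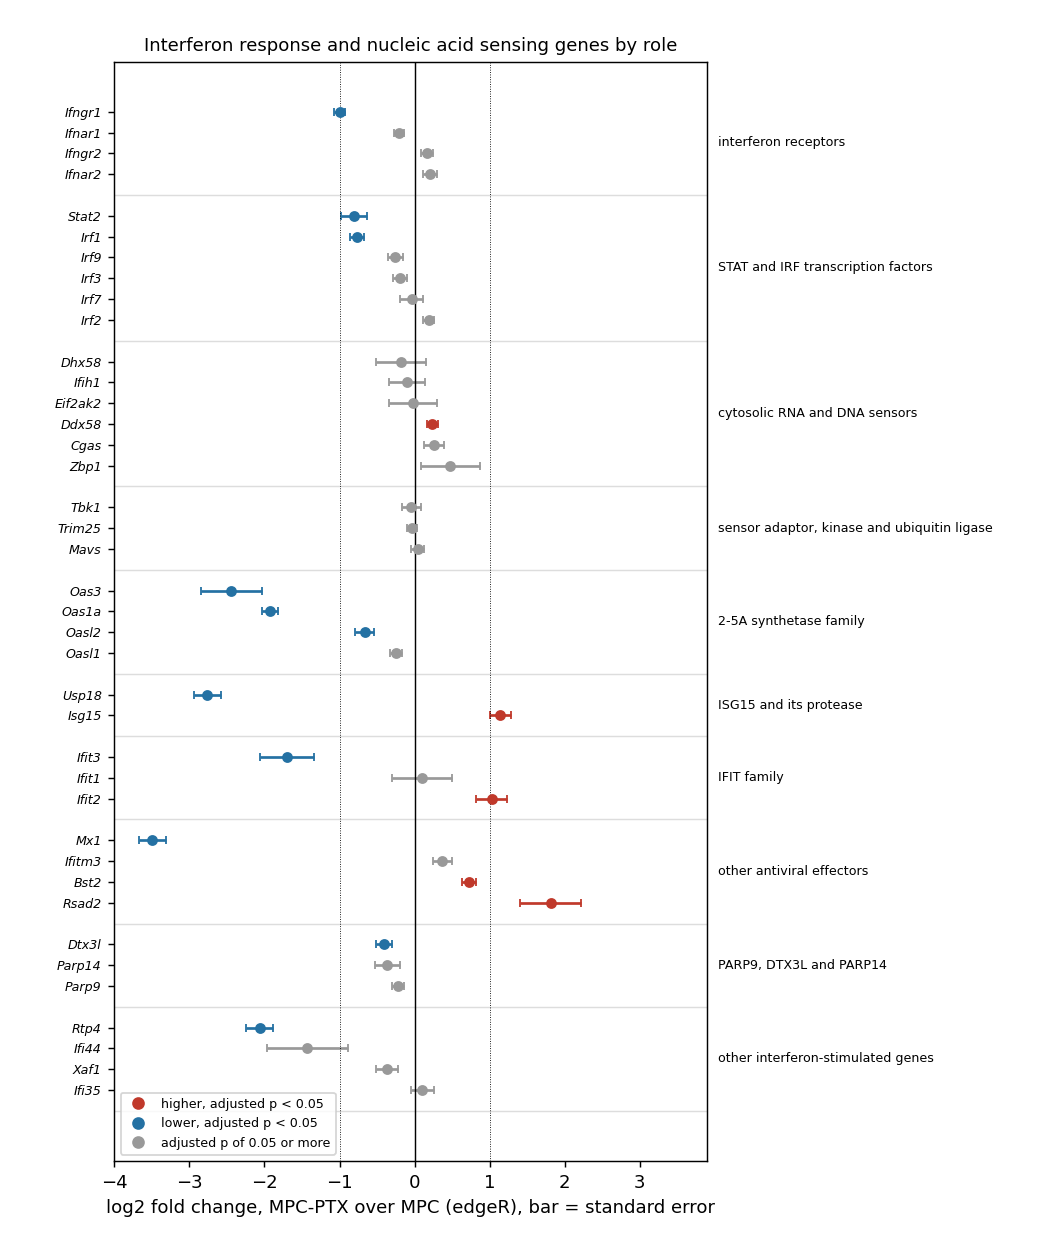
Log2 fold change of MPC-PTX over MPC (horizontal axis) for the 39 tested members, grouped by role, with points as edgeR estimates from 3 libraries per line and bars as SE. Red points are the 5 higher genes, blue points the 11 lower genes and grey points the 23 that did not pass the test, and the dotted lines mark -1 and 1. Mx1 lies farthest to the left at -3.49 and Rsad2 farthest to the right at 1.81. Rsad2 was tested only through MPC-PTX, and Oas3 and Ifit3 only through MPC, so the side on which these lie was fixed beforehand.

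At the cell surface, the ligand-binding chain of the interferon gamma receptor changed and its partner did not pass the test. Ifngr1 (chromosome 10, 19591949 to 19610229) had 3119, 3693 and 3836 counts in MPC and 2060, 2078 and 1509 in MPC-PTX, or 165.7, 190.4 and 184.3 CPM against 88.0, 93.7 and 89.7 CPM. Every MPC-PTX library was below every MPC library, and the mean was 1.99-fold lower (log2 fold change -0.99, SE 0.07, edgeR adjusted p = 0.00013). Ifngr2, the signalling chain, was at 95.2, 88.8 and 81.2 CPM in MPC and 100.1, 96.8 and 100.3 CPM in MPC-PTX (0.17, SE 0.08, edgeR adjusted p = 0.149). Its lines did not overlap but lay close together.

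The type I interferon receptor chains differed little. Ifnar1 was at 76.9, 84.0 and 86.8 CPM in MPC and 70.1, 72.4 and 72.0 CPM in MPC-PTX (log2 fold change -0.21, SE 0.07, edgeR adjusted p = 0.0651). Ifnar2 was at 17.5, 17.6 and 18.5 CPM in MPC and 18.8, 21.4 and 21.6 CPM in MPC-PTX (0.21, SE 0.09, edgeR adjusted p = 0.137). Each pair of lines was free of overlap, one below and one above MPC. The adjusted p of Ifnar1 was 0.0153 with a correction for GC content and length and 0.0457 with DESeq2 size factors, on all 6 libraries, and 0.0152 without MPC replicate 1 and 0.0162 without MPC replicate 3. That of Ifngr2 was 0.0384 without MPC replicate 1.

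Of the transcription factors, Stat2 and Irf1 fell. Stat2, the partner of IRF9 in the type I response, had 200, 294 and 351 counts in MPC and 199, 170 and 139 in MPC-PTX, or 10.6, 15.2 and 16.9 CPM against 8.50, 7.66 and 8.26 CPM. MPC replicate 1 lay nearest to MPC-PTX, without overlap (log2 fold change -0.81, SE 0.18, edgeR adjusted p = 0.0134). The adjusted p rose to 0.0575 without MPC replicate 2 and to between 0.0501 and 0.0632 without any one MPC-PTX library. Irf1, an activator that is itself a target of interferon gamma, was at 61.1, 74.0 and 65.5 CPM in MPC and 39.4, 37.6 and 41.2 CPM in MPC-PTX. All MPC-PTX libraries were lower (log2 fold change -0.76, SE 0.09, edgeR adjusted p = 0.00111).

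The other IRF genes did not pass the test. Irf9, the DNA-binding part of the STAT2 complex, was at 33.7, 41.2 and 35.6 CPM in MPC and 30.9, 30.3 and 31.4 CPM in MPC-PTX (log2 fold change -0.26, SE 0.10, edgeR adjusted p = 0.0859), without overlap. Its adjusted p was 0.0301 without MPC replicate 1 and 0.0173 without MPC replicate 3. Irf3, the factor that TBK1 activates, was at 34.2, 30.3 and 29.4 CPM in MPC and 29.4, 26.8 and 25.9 CPM in MPC-PTX (-0.19, SE 0.10, edgeR adjusted p = 0.177), with an overlap of the lines, and had an adjusted p of 0.0209 without MPC replicate 3. Irf7, the amplifier of the type I response, had 88, 125 and 113 counts in MPC and 121, 121 and 93 in MPC-PTX. Its lines overlapped, and the sign of its difference (-0.04, SE 0.15) turned with the scaling. Irf2, an antagonist of IRF1, had a log2 fold change of 0.19 (SE 0.07, edgeR adjusted p = 0.0849).

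Among the members that encode sensors or carry their signal, the differences were small. Ddx58 (RIG-I) was at 29.0, 29.1 and 29.2 CPM in MPC and 33.0, 35.5 and 34.5 CPM in MPC-PTX. The lines did not overlap, and the difference just passed the test (log2 fold change 0.24, SE 0.07, edgeR adjusted p = 0.0475). The call was lost without any one of MPC replicate 2 (adjusted p = 0.123), MPC replicate 3 (0.063) and the MPC-PTX libraries (0.115 to 0.197), and under 7 other settings. Cgas was at 5.53, 4.74 and 5.05 CPM in MPC and 5.90, 5.82 and 6.65 CPM in MPC-PTX, without overlap (0.26, SE 0.13, edgeR adjusted p = 0.175). Mavs, the mitochondrial adaptor of the RNA sensors, was at 80.1, 72.2 and 66.9 CPM in MPC and 77.4, 74.2 and 73.7 CPM in MPC-PTX, and Tbk1 at 39.4, 44.9 and 56.2 against 46.0, 44.1 and 46.5 CPM. Both overlapped between the lines (0.04, SE 0.08, and -0.04, SE 0.13), as did Trim25, which encodes a ubiquitin ligase that aids RIG-I (-0.03, SE 0.07).

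Ifih1 (MDA5) was at 10.8, 12.9 and 19.8 CPM in MPC and 11.8, 13.3 and 15.9 CPM in MPC-PTX, and the lines overlapped (log2 fold change -0.10, SE 0.24). Eif2ak2, which encodes the kinase PKR that halts translation when it binds double-stranded RNA, was at 26.6, 33.2 and 66.6 CPM in MPC and 37.8, 41.6 and 45.6 CPM in MPC-PTX (-0.02, SE 0.33). In both genes MPC replicate 3 was above every other library. Its ratio to the mean of MPC replicates 1 and 2 was 1.67 for Ifih1 and 2.23 for Eif2ak2, whose transcripts have 42.8% and 43.9% GC. The part of GC content in these ratios was not tested. In the fit corrected for GC content and length, the log2 fold change of Ifih1 was -0.27 (SE 0.11, edgeR adjusted p = 0.0882). Dhx58, which encodes a regulator of RIG-I and MDA5, had 17 to 42 counts in a library and Zbp1, which encodes a sensor of left-handed nucleic acid, 5 to 17, and neither passed the test (-0.18, SE 0.33, and 0.47, SE 0.39).

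The oligoadenylate synthetases are activated by double-stranded RNA and make the messenger that switches on RNase L. All 4 tested members of this family had negative log2 fold changes, and 3 of them passed the test, where 15.6% of all genes were lower. One of these, Oas3, was tested only through its MPC libraries and so had to be lower. Oas1a (chromosome 5, 120896256 to 120907521) had 263, 272 and 267 counts in MPC and 86, 78 and 59 in MPC-PTX, or 14.0, 14.0 and 12.8 CPM against 3.67, 3.52 and 3.51 CPM. The MPC-PTX libraries lay close together and far below MPC (log2 fold change -1.93, SE 0.11, edgeR adjusted p = 4.06e-05). Oas3, which encodes the long form that is the main source of the messenger, had 18, 23 and 17 counts in MPC and 3, 6 and 2 in MPC-PTX (log2 fold change -2.44, SE 0.41, edgeR adjusted p = 0.00449). Oasl2, which encodes an OAS-like protein, fell from 26.7 ± 4.04 to 16.9 ± 0.999 CPM (SD, n = 3 each; log2 fold change -0.67, SE 0.13, edgeR adjusted p = 0.00809). Its neighbour Oasl1, whose product restrains translation of Irf7, fell short of the threshold (-0.25, SE 0.08, edgeR adjusted p = 0.0508). Oas2 had 4, 9 and 3 counts in MPC and 1, 1 and 3 in MPC-PTX and was not tested.

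Of the other genes in the 177 kb Oas cluster on chromosome 5, Oas1g had 53, 68 and 51 counts in MPC and 5, 5 and 2 in MPC-PTX (log2 fold change -3.89, SE 0.31), while Oas1b (-0.02, SE 0.26) and Oas1c (-0.10, SE 0.16) did not pass the test. Oas1g was tested only through its MPC libraries and so had to be lower. Oas1h had a single read in all 6 libraries. Oas1a and Oas1g are close copies, and since the treatment of reads that fit several places is not given, the split of reads between them is uncertain.

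ISG15 is a ubiquitin-like protein that is joined to other proteins during an interferon response, and USP18 is the protease that removes it and also shuts down signalling at the receptor. Isg15 had 57, 56 and 75 counts in MPC and 157, 157 and 123 in MPC-PTX, or 3.03, 2.89 and 3.60 CPM against 6.71, 7.08 and 7.31 CPM. It was 2.21-fold higher in MPC-PTX, without overlap (log2 fold change 1.14, SE 0.14, edgeR adjusted p = 0.00115). Usp18 moved in the opposite direction, with 193, 264 and 245 counts in MPC and 35, 38 and 35 in MPC-PTX, or 10.3, 13.6 and 11.8 CPM against 1.495, 1.71 and 2.08 CPM. The fall was 6.79-fold (log2 fold change -2.76, SE 0.18, edgeR adjusted p = 7.61e-05), and the lines did not overlap. Per kilobase of transcript, Usp18 was above Isg15 in every MPC library, at 5.79 to 7.68 against 3.82 to 4.77 CPM per kilobase. In every MPC-PTX library it was below Isg15, at 0.844 to 1.17 against 8.87 to 9.67 CPM per kilobase. Of the enzymes that attach ISG15, which are not members of the list, the activating enzyme gene Uba7 fell (log2 fold change -1.08, SE 0.13, edgeR adjusted p = 0.00124), whereas the conjugating enzyme gene Ube2l6 (0.16, SE 0.14) and the ligase gene Herc6 (0.40, SE 0.22) did not pass the test. Ube2l6 and Herc6 were picked out here after their values had been seen.

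The IFIT proteins hinder viral RNA, in part by binding its ends and blocking translation. Ifit2 and Ifit3 lie next to each other on chromosome 19. Ifit2 was higher and Ifit3 lower in MPC-PTX, but Ifit3 was tested only through its MPC libraries and so had to be lower. Ifit2 (34550694 to 34576419) had 98, 77 and 150 counts in MPC and 237, 249 and 205 in MPC-PTX, or 5.21, 3.97 and 7.21 CPM against 10.1, 11.2 and 12.2 CPM. All MPC-PTX libraries were above all MPC libraries, among which replicate 3 was highest (log2 fold change 1.03, SE 0.21, edgeR adjusted p = 0.0105). Ifit3 (34583531 to 34588731) had 14, 18 and 24 counts in MPC and 7, 8 and 3 in MPC-PTX, and in CPM every MPC-PTX library was below every MPC library. Its log2 fold change was -1.70 (SE 0.37, edgeR adjusted p = 0.0123), with an adjusted p of 0.0534 without MPC-PTX replicate 1 and 0.0507 without MPC-PTX replicate 3. Ifit1 had 9 to 19 counts in each library and did not pass the test (0.10, SE 0.40). Ifit1bl1, which is no member but lies in the same 99 kb cluster, had 25, 22 and 27 counts in MPC and 4, 2 and 4 in MPC-PTX (log2 fold change -2.92, SE 0.36), and was tested only through its MPC libraries, so that it had to be lower. The IFIT genes of the mouse include close copies, so reads may be split among them.

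Among the other antiviral effector genes, Mx1 (chromosome 16 of GRCm38, 97447035 to 97462907) fell most. Mx1 encodes a GTPase that blocks influenza-like viruses in the nucleus, and many laboratory strains, C57BL/6 among them, carry a defective allele. It had 169, 199 and 245 counts in MPC and 23, 18 and 16 in MPC-PTX, which is 8.98, 10.3 and 11.8 CPM against 0.983, 0.812 and 0.951 CPM. Every MPC-PTX library was far below every MPC library. The level fell from 10.3 ± 1.40 to 0.915 ± 0.0909 CPM (SD, n = 3 each), an 11.3-fold difference (log2 fold change -3.49, SE 0.18, edgeR adjusted p = 2.97e-05). Its neighbour Mx2, whose product acts in the cytoplasm, had 5, 10 and 14 counts in MPC and 2, 6 and 1 in MPC-PTX and was too low to be tested.

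Rsad2 encodes viperin, which makes a chain-terminating nucleotide from CTP. It was higher in MPC-PTX, but it was tested only through its MPC-PTX libraries and so had to be higher. It had 5, 2 and 6 counts in MPC and 16, 18 and 15 in MPC-PTX, with no overlap between the lines in CPM. The log2 fold change was 1.81 (SE 0.41, edgeR adjusted p = 0.0147), and the adjusted p was 0.0592 without MPC-PTX replicate 2 and 0.0593 without MPC-PTX replicate 3. Cmpk2, whose product supplies CTP and whose gene adjoins Rsad2 on chromosome 12, was higher too (log2 fold change 0.81, SE 0.17, edgeR adjusted p = 0.0108). Bst2, which encodes tetherin, a membrane protein that holds budding virions at the cell surface, was at 51.0, 44.5 and 40.98 CPM in MPC and 78.3, 74.7 and 73.1 CPM in MPC-PTX. All MPC-PTX libraries were above all MPC libraries (log2 fold change 0.73, SE 0.09, edgeR adjusted p = 0.00152). Ifitm3, which encodes a membrane protein that hinders viral fusion, was the most abundant member with 1096 ± 204.5 CPM in MPC and 1416 ± 35.8 CPM in MPC-PTX (SD, n = 3 each), and the difference did not pass the test (log2 fold change 0.37, SE 0.13, edgeR adjusted p = 0.0682).

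**Figure D2:**
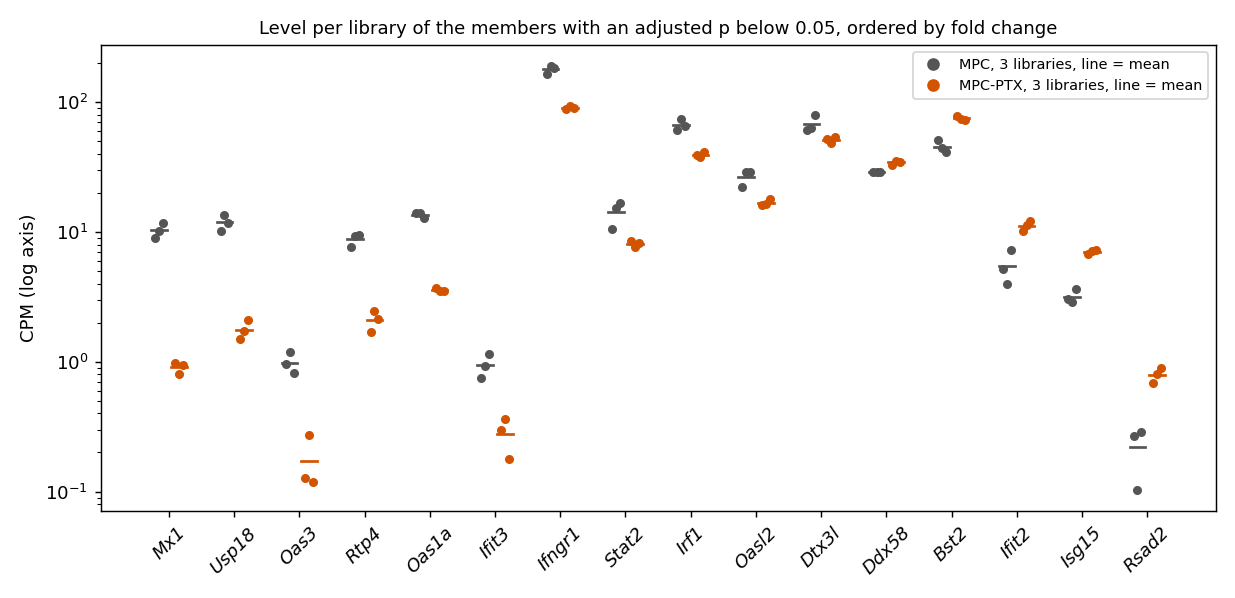
CPM on a log axis of the 16 members with an adjusted p below 0.05, ordered by fold change, with 3 points per line for the libraries and a bar for their mean. The MPC libraries are grey and the MPC-PTX libraries orange, from Mx1 (10.3 against 0.915 CPM) to Rsad2 (0.219 against 0.795 CPM). The lines do not overlap for any of the 16 genes, against 46.9% without overlap among all tested genes. Since the 16 were chosen by their adjusted p, this is no separate result. Rsad2 passed the low-count filter only through MPC-PTX, and Oas3 and Ifit3 only through MPC.

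The libraries of the lines did not overlap for 26 of the 39 tested members, or 66.7%, against 46.9% of all tested genes. In 10 of these 26 MPC-PTX was above and in 16 below. This is a description of the members that passed the filter, which were chosen with earlier results of these data known.

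Rtp4 encodes a transporter protein with a zinc finger that is induced by interferon and restricts flaviviruses. It fell from 143, 181 and 198 counts in MPC to 40, 55 and 36 in MPC-PTX, or from 7.60, 9.33 and 9.51 to 1.71, 2.48 and 2.14 CPM. The lines were well apart (log2 fold change -2.06, SE 0.18, edgeR adjusted p = 0.000265). The annotated Rtp4 gene overlaps Masp1 on the other strand, and the use of strand in counting is not given. Ifi44 had 10, 14 and 31 counts in MPC and 8, 4 and 9 in MPC-PTX, with a slight overlap of the lines in CPM (log2 fold change -1.43, SE 0.54, edgeR adjusted p = 0.0895). Xaf1, which encodes a binder of the apoptosis inhibitor XIAP, and Ifi35, which encodes a partner of NMI, did not pass the test (-0.37, SE 0.15, and 0.10, SE 0.15).

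PARP9 and DTX3L form a complex of an ADP-ribosyl transferase and a ubiquitin ligase, and PARP14 is a larger transferase encoded beside them. All 3 genes, which lie together on chromosome 16, had negative log2 fold changes. Dtx3l fell from 61.4, 63.5 and 79.6 CPM in MPC to 52.0, 48.5 and 53.7 CPM in MPC-PTX (log2 fold change -0.41, SE 0.11, edgeR adjusted p = 0.0318), a call that was lost when MPC replicate 2 (adjusted p = 0.0623) or any MPC-PTX library (0.0838 to 0.128) was left out. Parp9 (-0.22, SE 0.08) and Parp14 (-0.36, SE 0.16) did not pass the test. Parp9 and Dtx3l overlap head to head on opposite strands, and MPC replicate 3 was the highest library for each of the 3 genes.

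**Figure D3:**
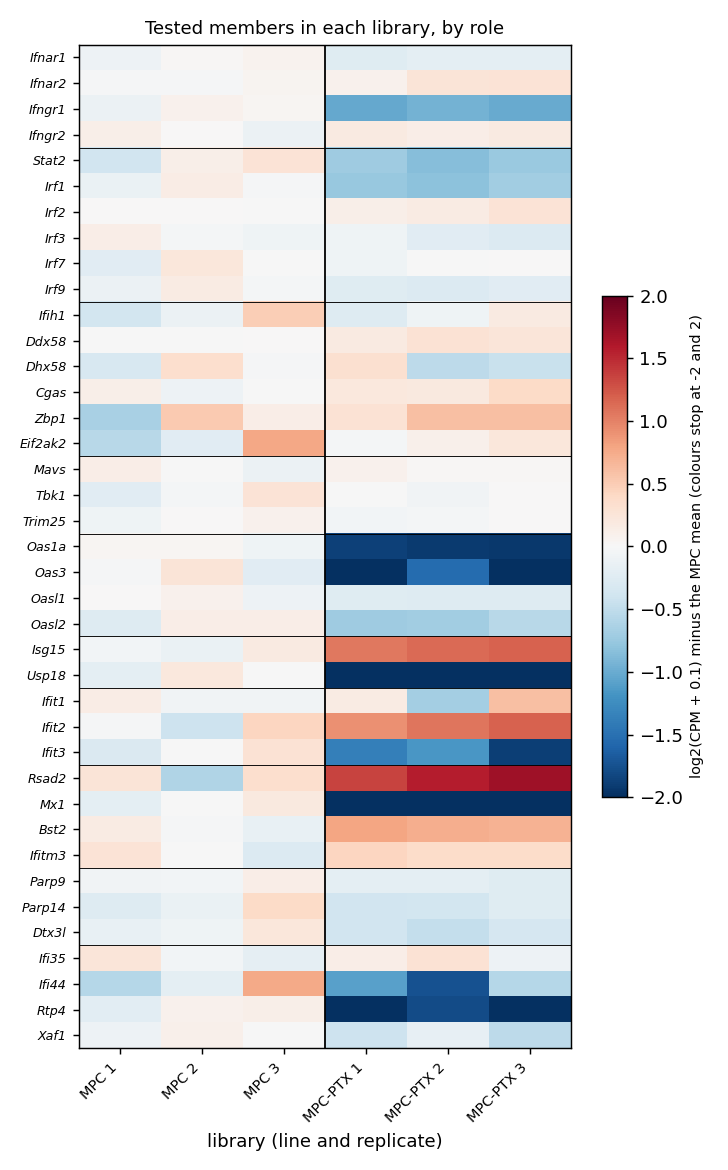
Each tested member (row, 39 in all, by role) in each of the 6 libraries (column), as the log2 of CPM plus 0.1 minus the mean of that value over the 3 MPC libraries, with red for higher and blue for lower levels. The 3 MPC-PTX columns look alike for most genes, whereas MPC replicate 3 stands out from the other MPC libraries for Eif2ak2, Ifih1 and Ifi44.

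Further genes of the pathway were taken from a list of 116 genes outside the members, sorted by role and also chosen with earlier results of these data known. Of these, 87 were tested, 10 were higher (11.5%, against 14.1% of all genes) and 20 lower (23.0%, against 15.6%), with a median log2 fold change of -0.10. Without MPC replicate 3, 17 were higher, and without MPC replicate 2, 6 were. Leaving out a MPC-PTX library gave 3 or 4 higher and 12 or 13 lower genes. For these fits, too, the share of all genes is not given. Other interferon-stimulated genes made up 51 of the 87 tested, with 7 higher (13.7%, against 14.1% of all genes) and 15 lower (29.4%, against 15.6%). Of 22 tested genes for other sensors, adaptors and nucleases 2 were higher (9.09%) and 4 lower (18.2%, against 15.6% of all genes). The higher ones were Ikbke (log2 fold change 0.34) and Samhd1 (0.32). The lower ones were Ikbkg (-0.43), Rnf135 (-0.41), Sting1 (-0.39) and Adar (-0.34). Of 8 tested genes for receptor chains, kinases and feedback, only Tyk2 (12.5% of them) passed the test, towards lower (-0.63). These genes were named after their values were seen. Of 10 interferon genes, 7 had 0 counts in every library, which allows up to 3 counts per library. The only interferon gene that passed the filter was Ifne, named here after its values were seen, with 51, 76 and 77 counts in MPC and 59, 54 and 56 in MPC-PTX (-0.33, SE 0.21).

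Of the 9 listed genes with a log2 fold change below -1, Tgtp1, which encodes a GTPase induced by interferon gamma, had 31, 39 and 38 counts in MPC and 2, 1 and 0 in MPC-PTX, a ratio of 37.1 (95% interval from counting error 12.4 to 183). Tgtp1 has a close copy, and its reads may be split. Of these 9 genes, 3 (Tgtp1, Oas1g and Ifit1bl1) had 0 MPC-PTX libraries past the count limit of the filter and so could only come out lower. Lgals9, which encodes the lectin galectin-9, fell from 159.8 ± 14.3 to 26.6 ± 1.53 CPM (SD, n = 3 each; log2 fold change -2.59, SE 0.09, edgeR adjusted p = 8.81e-06). Ifi47, another GTPase gene, fell by 2.24 (SE 0.18), Lgals3bp, which encodes a secreted galectin-binding protein, by 1.26 (SE 0.13), Trim30a by 1.25 (SE 0.32) and Apol9b by 1.09 (SE 0.29). Oas1g, Ifit1bl1 and Uba7 are described above. The 2 genes above 1 with an adjusted p below 0.05 were Ifi30 and Ifitm1. Ifi30, which encodes a lysosomal thiol reductase used in antigen processing, had 28.8 ± 3.81 CPM in MPC and 61.7 ± 0.820 CPM in MPC-PTX (SD, n = 3 each; log2 fold change 1.10, SE 0.10, edgeR adjusted p = 0.000372). Ifitm1 encodes a relative of IFITM3 (1.06, SE 0.15, edgeR adjusted p = 0.00291). Irf4 was above 1 too but did not pass the test (1.08, SE 0.54, edgeR adjusted p = 0.178).

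The members were set beside the other tested genes near them on the chromosome. The 8 other tested genes within 1 Mb of Mx1 had a median log2 fold change of -0.27, and those near Usp18, Oas1a and Rtp4 had medians of -0.17, -0.02 and -0.05, against -3.49, -2.76, -1.93 and -2.06 for the members themselves. Near Isg15 the median of 31 genes was 0.22, against 1.14 for Isg15, and near Ifngr1 the median of 7 genes was -0.37, with 1 of them positive, against -0.99 for Ifngr1. Near Stat2 the median of 54 genes was -0.21, with 14 of them positive. For Ddx58 (0.11, against 0.24) and Dtx3l (-0.16, against -0.41) the member was nearer to its neighbours. The part of the surrounding region in these differences was not tested.

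**Figure D4:**
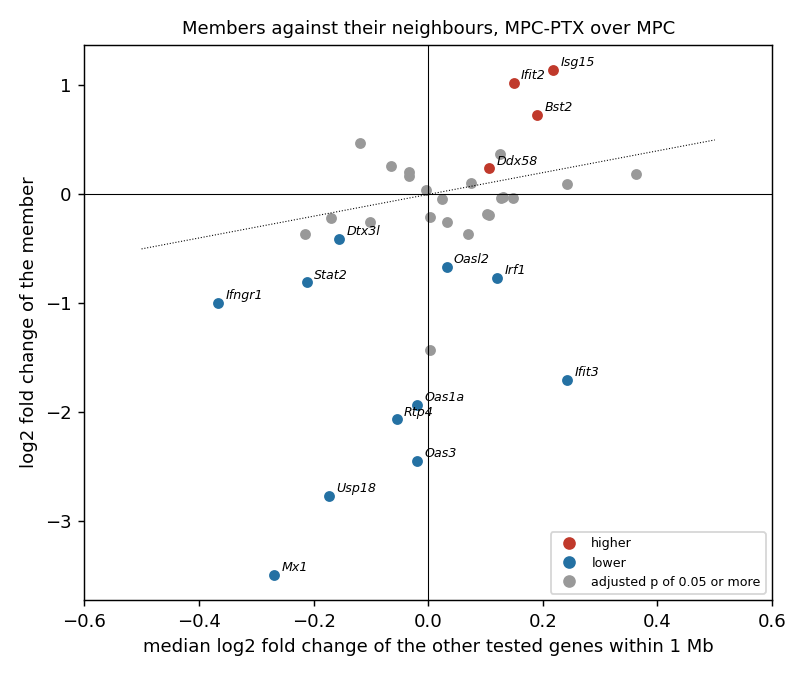
Log2 fold change of each member (vertical axis) against the median log2 fold change of the other tested genes that start within 1 Mb (horizontal axis), for the 37 tested members with at least 5 such genes, coloured as higher, lower or not past the test. The medians of the neighbours lie between -0.37 and 0.36, and Mx1, Usp18, Oas3, Rtp4, Oas1a and Ifit3 lie far below the dotted line of equality. Oas3 and Ifit3 passed the low-count filter only through MPC and so had to be lower.

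Markers of other cells were measured beside the members, since leukocytes carry many of these genes and the parent tumour grew in a BALB/c nude mouse. Of 8 leukocyte markers only Cd68, a lysosomal gene of many cells, passed the filter. The sum over these 8 was 11.3 to 12.8 CPM in MPC and 9.80 to 10.7 CPM in MPC-PTX, and Ptprc, the defining leukocyte marker, had 1 to 6 counts in a library. Of 4 markers of plasmacytoid dendritic cells, Siglech and Ccr9 had 0 counts in every library, while Tcf4 and Ly6d, which other cells use too, were higher in MPC-PTX (log2 fold change 0.94 and 1.25), and the sum over the 4 was 24.4 to 33.5 CPM in MPC and 55.4 to 62.4 CPM in MPC-PTX, whose part in the results was not tested. The 6 fibroblast markers summed to 9.46 to 10.5 CPM in MPC and 8.21 to 9.33 CPM in MPC-PTX and the 4 endothelial markers to 2.58 to 2.98 and 2.21 to 2.79 CPM. Among these Col1a1 was lower in MPC-PTX (log2 fold change -0.80).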

How the data were processed

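Poly-A RNA was sequenced in 3 MPC and 3 MPC-PTX libraries. After read filtering (fastp 0.22.0) and HISAT2 mapping, the authors deposited raw read counts per gene, not normalized and not pooled. The genome release, annotation, counting tool, strand use and treatment of reads with several matches are not given in the sources used here. Values were equal between the table of the whole series and all 6 single-library tables. Groups and replicate numbers came from the sample titles.

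Genes were filtered with filterByExpr (minimum count 10), library sizes scaled with TMM, and 11795 of 21959 genes tested by the quasi-likelihood functions of edgeR 4.0.16 (glmQLFit, robust, then glmQLFTest, in R 4.3.3), with Benjamini-Hochberg adjustment over all tested genes. The SE is the size of the log2 fold change divided by the square root of F. An exact permutation test of 3 against 3 libraries cannot give a two-sided p below 0.1, so no single-value test was run. Totals of 16574580 to 23148182 counts set the precision, and intervals cover counting error only. The members, roles and lists were chosen with earlier results of these data known. Values in every library are given for called members that changed more than 2-fold and for receptors, sensors and factors chosen by role, and called pathway genes past the same fold are named. Bst2, Dtx3l, Eif2ak2, Cmpk2 and the neighbours within gene clusters were given in more detail after their values were seen. Positions, transcript lengths and GC came from GENCODE M21 (GRCm38) by Ensembl identifier and promoters from RefSeq (GRCm38.p6) by symbol. The steps were tested on simulated data with known changes. Both simulated lines had the same spread, unlike the measured lines, so this test does not cover the unequal spread seen here. Alternatives were DESeq2 1.42.0, its size factors, library size alone, other filters, a replicate block, glmTreat, a loess correction for GC and length (span 0.3) and each library left out.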

Additional observations from a re-analysis of the deposited data

How the results depend on the processing

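Mx1, Usp18, Oas1a and Rtp4 kept their direction and an adjusted p below 0.05 under all 14 alternatives, and Isg15, Ifit2, Bst2, Ifngr1, Irf1 and Oasl2 under all but glmTreat, which tests against a log2 fold change of 1. With glmTreat 0 members were higher and 4 lower, and 0 and 5 of the other pathway genes. By fold and unadjusted p, the limits used in the study, 3 members were higher and 7 lower, and 1 was higher with glmTreat. With at least 10 counts in every library 33 members were tested, of which 3 were higher by adjusted p and 1 by those limits. Rsad2 was then not tested, Ddx58 had an adjusted p of 0.0988, and Ifit2 had a log2 fold change of 0.9989. With the correction for GC and length, 6 members were higher and 15 lower by adjusted p, and 14 and 27 of the other pathway genes. Leaving out 1 library in turn gave 3 to 7 members higher and 8 to 17 lower by adjusted p, with 17 without MPC replicate 1 and 3 without MPC-PTX replicate 2 or 3. By fold and unadjusted p it gave 2 to 3 and 6 to 9. Of the other pathway genes 3 to 17 were then higher (17 without MPC replicate 3) and 12 to 26 lower. The share of all genes is not given for any alternative, so these counts do not set the listed genes apart from other genes. The log2 fold change of Irf7 changed sign with library size alone (0.0003), with the correction for GC and length (0.0181) and without MPC replicate 2, ranging from -0.142 to 0.0877 as single libraries were left out. Those of Ifih1 (-0.2734 to 0.135, positive without MPC replicate 3 or MPC-PTX replicate 1, 0.0015), Mavs (-0.0701 to 0.111) and Tbk1 (-0.1515 to 0.0573) changed sign too, the latter both without MPC replicate 3. None of these passed the test under any setting, and the cause was not tested. No alternative moved the median of all genes by more than 0.0435. Low counts, as for Rsad2, Oas3 and Ifit3, limit the precision of their folds.

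The replicate numbers were not shown to pair the libraries. The deviations of same-numbered libraries from their line's mean correlated at 0.151, -0.0227 and 0.173, and MPC replicate 2 correlated best with MPC-PTX replicate 1. With the replicate number as a block, 5 members were higher and 11 lower, as without it, but Ifitm3 was among the higher genes in place of Ddx58 (adjusted p = 0.0974 with the block).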

Other observations

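Per kilobase of transcript, Ifitm3 had the highest level of the 41 members in each line, with means of 1617 CPM per kilobase in MPC and 2089 in MPC-PTX. Ifngr1 was next in MPC (85.3) and Bst2 (95.1) in MPC-PTX. Mx1 went from rank 27 to rank 35 of the 41 members, Usp18 from 21 to 31, and Isg15 from 25 to 17. The ranks rest on means of 3 libraries, and neighbours in the order are often closer than their spread.

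The letters TTCNNNGAA, the core of the gamma-activated site, which read the same on both strands, were found in the promoter window of 10 of 32 members, or 31.2%, against 9.55% of all genes with an entry. Since the list was drawn up from interferon genes, this share says nothing on the comparison of the lines. The letters were found in 2 of the 5 members higher in MPC-PTX (Ifit2 and Bst2) and in 2 of the 8 lower members with an entry (Irf1 and Oas1a). They were also found in 6 of the 19 members whose difference did not pass the test. In Bst2 the match overlaps the core of the interferon-stimulated response element.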
